A study of Mus musculus with 2 samples.

Results

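The transcripts described here are those of 9 genes through which mammals take up, carry, store and release iron and through which the hormone hepcidin controls that traffic, namely Hamp, Hjv, Hfe, Tfr2, Trf, Tfrc, Slc11a2, Fth1 and Slc40a1. They were taken by name, older names included, from the spots of 2 arrays that are not controls. All 9 had a probe, giving 12 probes on 21 spots, out of 28785 gene names on the array. The samples were subcutaneous tumours of Panc02 cells, a mouse pancreatic carcinoma line, grown in C57BL/6 mice assigned to their housing when 3 weeks old and kept there until 5 weeks had passed since the tumour cells were given. The first group lived in an enriched environment, a home with more stimulation, and the control group in a standard environment. Both groups received the same tumour line, and the labels give no other treatment. Each group is 1 RNA pool of 6 mice read on a single array with a single dye, so no difference has a replicate check and no p-value is given.

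An intensity is the background-subtracted brightness of a spot. A level is its log2 value minus that of its array's 75th percentile, an intensity of 984 in the enriched and 753 in the standard environment pool, so an equal brightness on both arrays is a lower level in the enriched environment pool. A difference is the enriched minus the standard environment level. Of 43379 spots, 77.4% were well above background in the enriched and 77.2% in the standard environment pool, and none of the 21 iron gene spots was saturated or marked as an outlier. The median difference of 20852 genes measured on both arrays was 0.03. All 10 carcinoma epithelium markers, among them Epcam and Krt8, were measured on both arrays, as were all 10 skeletal muscle markers, which the label does not name. In tumour tissue of this kind fewer cells of a type and less RNA per cell cannot be told apart.

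Iron travels in plasma bound to transferrin, which cells take in through the transferrin receptor, and a divalent metal transporter then moves the iron out of the endosome. Inside the cell it is used or held in ferritin, and ferroportin is the exporter that returns it to plasma. Hepcidin, made mainly by hepatocytes, binds ferroportin and causes its removal, and the membrane proteins hemojuvelin, HFE and transferrin receptor 2 tune hepcidin production through bone morphogenetic protein (BMP) signalling, while interleukin 6 raises it through STAT3. Tumour cells often depend on a large supply of iron for division.

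Mice carry a pair of hepcidin genes, Hamp and Hamp2, side by side on chromosome 7. Their upstream sequences are shown because the 2 genes gave different readouts although these stretches are nearly alike. They are the 250 bases before each gene's start on GRCm38.p6, from RefSeq, minus strand, 5′ to 3′, at chr7:30944030-30944279 for Hamp and chr7:30924182-30924431 for Hamp2. Capitals mark a match to GGCGCC, the core of the BMP response element, and to TTCNNNGAA, the form bound by STAT factors, both found in Hamp, and the bases of Hamp2 that face them.
Hamp: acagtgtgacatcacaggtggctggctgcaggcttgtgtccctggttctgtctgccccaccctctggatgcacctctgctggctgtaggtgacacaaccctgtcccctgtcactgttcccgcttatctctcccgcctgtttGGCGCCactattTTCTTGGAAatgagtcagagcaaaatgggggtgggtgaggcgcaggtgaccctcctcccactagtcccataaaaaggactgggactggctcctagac
Hamp2: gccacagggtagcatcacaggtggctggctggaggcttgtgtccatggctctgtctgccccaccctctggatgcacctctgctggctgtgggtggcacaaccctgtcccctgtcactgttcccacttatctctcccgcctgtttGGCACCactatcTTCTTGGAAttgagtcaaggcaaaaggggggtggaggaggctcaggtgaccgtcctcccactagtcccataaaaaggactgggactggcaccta
Laid side by side without gaps, 227 of 247 bases were the same (91.9%). The STAT-type letters TTCTTGGAA stood in both, with the first base at position -97 from the start of Hamp and -94 from that of Hamp2. GGCGCC began at position -109 of Hamp, and Hamp2 carried G4A there, counted from the first base of the motif. Both motifs read the same on either strand and do not overlap here. Among 32851 upstream windows of this length, 9.59% held GGCGCC, 7.02% held TTCNNNGAA and 0.368% held both. Of the 9 genes, 5 had a window in the table, and among these GGCGCC was found only for Hamp and Tfrc and TTCNNNGAA only for Hamp.

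The transcript of the main hepcidin gene was not well above background in either pool, while the paralog gave a signal that was lower in the enriched environment pool. The Hamp probe, on chromosome 7 from 27882251 to 27882310 of the mm7 build (minus strand), had an intensity of 7.19 in the enriched and 3.2 in the standard environment pool. The lowest signal that counted as well above background was 13.3 in the enriched and 14.6 in the standard environment pool, so no fold is given for Hamp. The Hamp2 probe, on chromosome 7 from 27862281 to 27862340, had an intensity of 58.8 in the enriched and 240 in the standard environment pool, with the software's error estimates at 6.7 in the enriched and 24.2 in the standard environment pool. The levels, -4.06 in the enriched and -1.65 in the standard environment pool, differ by -2.42, or 5.34-fold, and 2.29% of measured genes lay further down. With normexp, another background correction, the Hamp2 difference was -1.68, and with the uncorrected mean signal -1.78. The genes are near copies of each other, and how far a probe binds the partner's transcript was not tested. Of 9 hepatocyte markers with a probe, 5 were not well above background in either pool, namely Alb, Ttr, Apoa1, Apob and Cps1. The list summed to 0.00169% of the array's signal in the enriched and 0.002% in the standard environment pool. Of the 3 markers measured on both arrays Ahsg differed by -3.44, Tat by -1.42 and Cyp2e1 by 1.63, and Fgb was above background in the standard environment pool only.

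**Figure D1:**
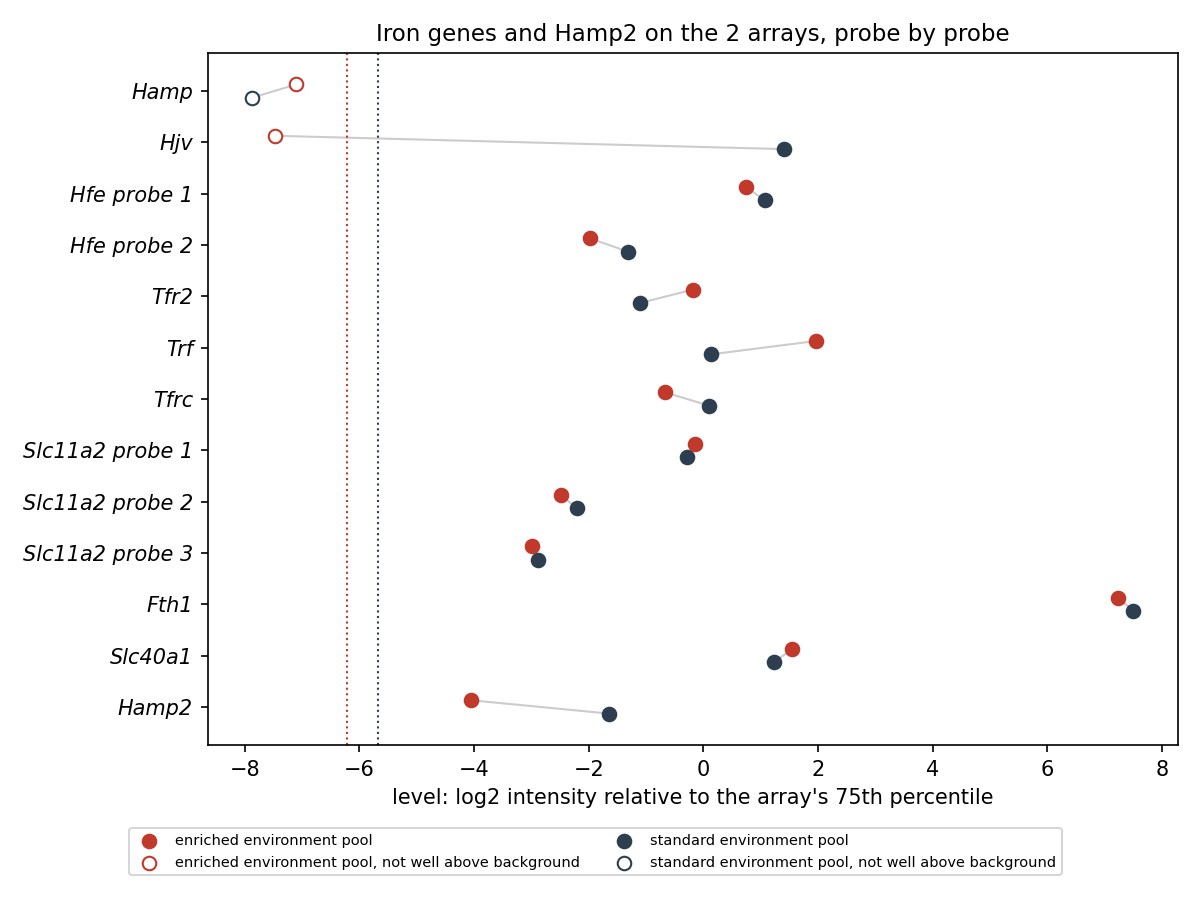
Level of each probe, as log2 intensity relative to the array's 75th percentile, in the enriched environment pool (red) and the standard environment pool (dark), with open points for spots not well above background and dotted lines at the lowest level well above background on each array, -6.21 in the enriched and -5.68 in the standard environment pool. Hjv spans from -7.47 in the enriched to 1.4 in the standard environment pool, Trf lies higher in the enriched environment pool, and Hamp is open in both.

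Of the proteins that tune hepcidin, Hjv differed by far the most, Tfr2 lay higher and Hfe slightly lower in the enriched environment pool. Hjv encodes hemojuvelin, a BMP co-receptor made in liver and skeletal muscle, and is listed in the files under its older name Hfe2. Its probe, on chromosome 3 from 96402140 to 96402199 of mm7 (plus strand), had an intensity of 5.53 in the enriched environment pool, not well above background, against 1984 in the standard environment pool. Set against the lowest signal well above background in the enriched environment pool, Hjv was at least 194-fold lower there, a bound of -7.60 on the log2 scale. Of 991 genes detected in the standard environment pool only, 561 had a bound of at least 2-fold (56.6%), and 8 had a larger bound than Hjv. With normexp the Hjv bound was -5.21, with the uncorrected mean signal -5.39. In the same pool all 10 skeletal muscle markers were lower by 2-fold or more, from -8.56 for Ckm to -3.08 for Tnni2, with a median of -7.92, and they summed to 0.091% of the signal there against 2.91% in the standard environment pool. Their part in the Hjv result was not tested.

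Tfr2, the second transferrin receptor and a sensor of iron-loaded transferrin in liver and red cell precursors, had an intensity of 860 (software error 86.1) in the enriched and 349 (35.1) in the standard environment pool. The difference was 0.91, or 1.88-fold, and 6.92% of measured genes lay further up. Over the alternative processings it stayed between 0.82 and 0.97, just under 2-fold. The Tfr2 probe lies on chromosome 5 from 136505632 to 136505691 of mm7 and is listed as Trfr2. Erythroid markers lay the other way: all 8 that could be compared were lower by 2-fold or more in the enriched environment pool, with a median of -5.13, and Epb4.2 was above background in the standard environment pool only. The part of the erythroid markers in the Tfr2 result was not tested.

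Hfe, which encodes an MHC class I-like protein that binds the transferrin receptor, has 2 probes on chromosome 13. The first, from 23069855 to 23069914, read 1649 in the enriched and 1583 in the standard environment pool, a difference of -0.33. The second, from 23068401 to 23068460, read 250 in the enriched and 304 in the standard environment pool, a difference of -0.67. Both probes thus pointed down after scaling, although the first was slightly brighter in the enriched environment pool before scaling. The mean of -0.50 has an SD of 0.24 between the probes, against a median SD of 0.17 over 6608 genes with several probes, and 21.1% of measured genes lay further down.

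The plasma carrier and the cell's main uptake receptor lay in opposite directions. Trf, the gene of transferrin, which liver secretes in bulk and several other tissues make in smaller amounts, read 3834 (software error 383) in the enriched and 821 (82.2) in the standard environment pool. That is a difference of 1.84, or 3.57-fold, with 1.53% of measured genes further up. Trf was the only one of the 7 iron genes measured on both arrays that passed 2-fold, and its difference stayed between 1.83 and 1.89 over the alternatives. The design coordinates of its probe cover 616 bases of chromosome 9, from 102929342 to 102929957 on mm7 (minus strand). Of the hepatocyte markers, Alb, Ttr, Apoa1, Apob and Cps1 were not well above background in either pool, Fgb was so in the standard environment pool only, and Cyp2e1 was at 1.63, Tat at -1.42 and Ahsg at -3.44. Adipocyte markers summed to 0.535% of the signal in the enriched and 0.22% in the standard environment pool, with 5 of 7 measured genes at least 2-fold higher and Lpl at -0.75. The carcinoma epithelium markers, with 10 of 10 at least 2-fold higher and a median of 1.97, summed to 1.14% in the enriched and 0.278% in the standard environment pool. Markers of Schwann cells, a cell type that can make transferrin, had a median of -0.57, with 2 of 6 higher and 4 lower. The part of these cell types in the Trf result was not tested.

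Tfrc, the transferrin receptor, whose mRNA is stabilised by iron regulatory proteins when iron is scarce, was lower in the enriched environment pool. It is the only one of the 9 genes whose probe has repeated spots. Its probe, on chromosome 16 from 32306693 to 32306752 of mm7 (plus strand), is spotted 10 times on each array. The 10 spots ran from 596 to 642 in the enriched and from 772 to 835 in the standard environment pool, with means of 617 in the enriched and 809 in the standard environment pool. The ranges do not overlap, with or without scaling, but spots of 1 array are not replicates of a housing. Over 245 probes with several spots the median SD was 0.0714 in the enriched and 0.0573 in the standard environment pool. How many of these probes also separate in this way was not counted. On the level scale the spots averaged -0.67 ± 0.038 in the enriched and 0.10 ± 0.037 in the standard environment pool (SD over 10 spots of 1 array, technical error only). The difference of -0.78, or 1.72-fold, stayed between -0.79 and -0.72 over the alternatives, and 13.2% of measured genes lay further down. All 10 cell cycle markers lay higher in the enriched environment pool, by 0.23 to 0.99, none by 2-fold or more, while Tfrc lay lower. The erythroid list, whose cells carry much of this receptor, summed to 0.0177% of the signal in the enriched and 0.822% in the standard environment pool, and its part in the Tfrc result was not tested.

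**Figure D2:**
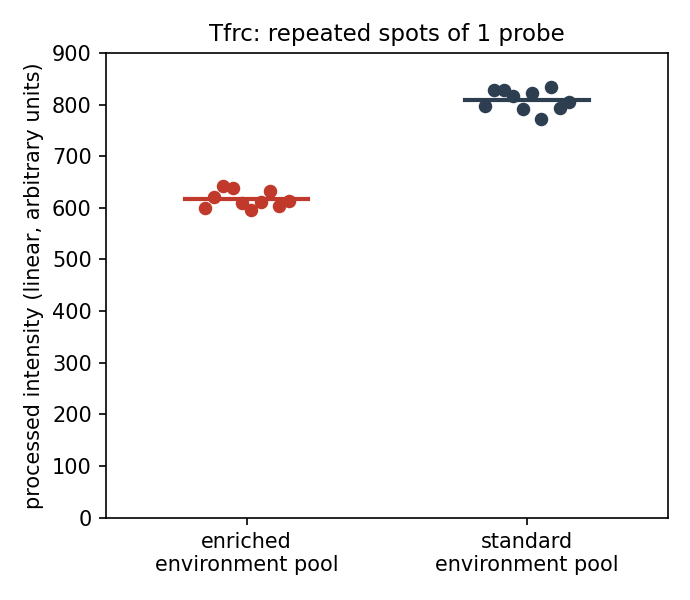
Processed intensity of the 10 Tfrc spots on each array (points) with their mean (line), on a linear axis from 0. The enriched environment spots sit between 596 and 642, all under the standard environment spots, which sit between 772 and 835, and the spread covers technical error within an array only.

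Slc11a2, the divalent metal transporter of endosome and gut, showed no common direction. Its 3 probes on chromosome 15 read 885, 177 and 124 in the enriched environment pool and 618, 163 and 101 in the standard environment pool. The differences were 0.13 for the probe from 100373147 to 100373206, -0.27 for that from 100378161 to 100378220 and -0.10 for that from 100395330 to 100395389 on mm7. Their mean of -0.08 has an SD of 0.20 between probes, and it turned to 0.13 where the brightest probe alone was used.

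The storage and export genes lay close to equal in the 2 pools. Fth1, the heavy chain of ferritin that oxidises iron for storage, read 147685 in the enriched and 135935 in the standard environment pool. The software errors were 14768 in the enriched and 13594 in the standard environment pool, so before scaling the intensities differed by less than either error. Scaled to the array, the Fth1 level was 7.23 in the enriched and 7.50 in the standard environment pool. The difference was -0.27, larger than the software error of 0.14 on the log2 scale on each array. It was -0.09 after quantile normalization and in the authors' deposited log2 table. The Fth1 probe lies on chromosome 19 from 9665120 to 9665179 of mm7. Mouse has processed copies of this gene, and whether they add to the probe's signal was not tested. Slc40a1, the gene of ferroportin, the iron exporter that hepcidin removes, read 2890 in the enriched and 1771 in the standard environment pool, a difference of 0.32 that stayed between 0.31 and 0.38 over the alternatives. Its probe lies on chromosome 1 from 46145061 to 46145120 of mm7. Macrophages export recycled iron through ferroportin. Of their 10 markers, 7 were higher in the enriched environment pool, beside 10896 of all 20852 measured genes. The median of these markers was 0.15, from -0.11 for C1qb to 0.97 for Mrc1, with Cd163 at 0.40. The part of macrophages in the Slc40a1 result was not tested.

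Of the 7 genes measured on both arrays, 3 were higher and 4 lower in the enriched environment pool, with a median of -0.08. Only Trf was at least 2-fold higher, 1 of 7, beside 5.71% of all 20852 measured genes, and 0 of 7 were 2-fold lower or more, beside 9.46%. At a threshold of 1.5-fold, 3 of 7 passed, Trf, Tfr2 and Tfrc, beside 33.2% of all measured genes in either direction. Counts of 0, 1 and 3 of 7 are too few to set these genes apart from the array as a whole, and the large differences were those of single genes, Trf and, by its bound, Hjv. Of 65 other iron genes measured on both arrays, 4 were higher and 7 lower by 2-fold or more, with a median of -0.16, so they too lay close to those shares.

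Among other genes that control hepcidin, 11 of 20 were higher and 9 lower in the enriched environment pool, with a median of 0.04. The BMP ligand Bmp6, the main iron-dependent inducer of hepcidin in mouse liver, had levels of -4.87 in the enriched and -2.13 in the standard environment pool, a difference of -2.74 or 6.68-fold on the probe measured on both arrays. That probe read 33.6 in the enriched and 172 in the standard environment pool. A second Bmp6 probe was above background in the standard environment pool only. The related ligand Bmp2 differed by -0.94. Il6, which induces hepcidin in inflammation, lay the other way at 2.33, or 5.03-fold. Its only probe read 176 in the enriched and, dim, 26.8 in the standard environment pool. How far the Bmp6 and Il6 folds depend on the background step was not tested. Tmprss6, the protease that cuts hemojuvelin, was higher in the enriched environment pool at 1.07. Among the receptors and signal carriers between them, Bmpr1a was at -0.01, Bmpr2 at -0.16, Il6st at -0.25, Smad1 at 0.06, Smad5 at 0.24 and Stat3 at -0.11. Smad4, the carrier shared by the BMP branch and other branches of this signalling, was lower at -0.49 over 2 probes (SD between probes 0.08). Id1 at -0.37 and Smad7 at 0.36, both known targets of BMP signalling, did not share a direction. The hepcidin-lowering hormones of stressed erythropoiesis, Erfe at 0.68 and Gdf15 at 0.69, were both under 2-fold.

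Genes of iron uptake and reduction split in the same way, with 5 of 11 higher and 6 lower and a median of -0.08. Steap1, of a family of membrane metal reductases, had levels of -0.03 in the enriched and -1.84 in the standard environment pool, a difference of 1.81 over 2 probes (SD between probes 0.04). Steap3, the endosomal ferrireductase of red cell precursors, lay the other way at -1.33 on a dim probe with an intensity of 26.1 in the enriched and 50.2 in the standard environment pool. The Ltf probes, for lactoferrin of neutrophil granules, differed by -2.44 and -2.59. Lcn2, which binds iron carried by bacterial siderophores, was at -0.08. Slc39a14, a carrier for iron not bound to transferrin, was at 0.40.

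Storage, sensing and oxidation of iron showed no gene past 2-fold among those measured on both arrays. Ftl1, the ferritin light chain, was at -0.12, the iron chaperone Pcbp1 at 0.31, Ncoa4, the receptor that delivers ferritin to lysosomes, at -0.35 and mitochondrial ferritin, Ftmt, at -0.47. Among the sensors, Ireb2, an iron regulatory protein, was at 0.49 and Fbxl5, which marks it for breakdown when iron is plentiful, at 0.63. Aco1, the other iron regulatory protein, averaged -0.49 over 2 probes of opposite sign (SD between probes 1.54). Cp, the plasma ferroxidase, was at -0.16. Heph, the membrane ferroxidase that works with ferroportin, was above background in the enriched environment pool only, on 1 of 2 probes. That probe read 226 in the enriched and 14.9 in the standard environment pool. The reference for Heph was this own standard environment signal, which was not well above background. The 11.6-fold higher value in the enriched environment pool is thus a plain ratio and not a lower limit.

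**Figure D3:**
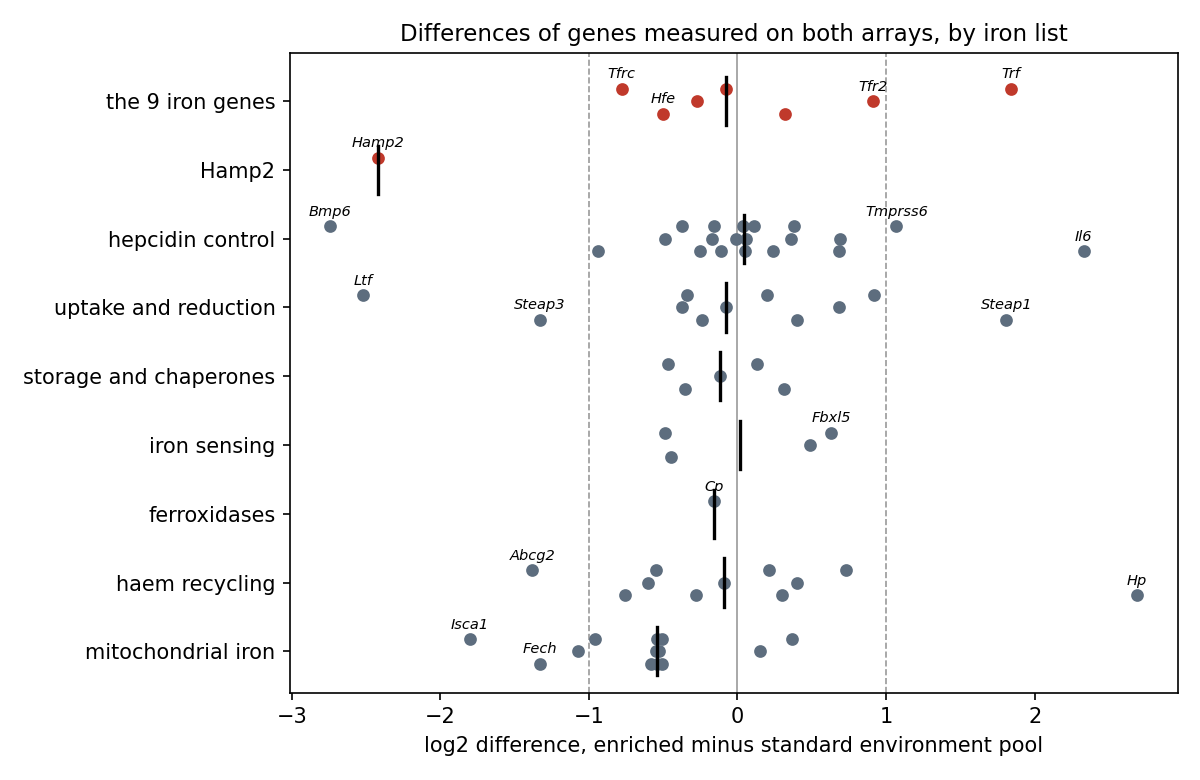
Log2 difference, enriched minus standard environment pool, of each gene measured on both arrays, for 7 of the 9 iron genes and Hamp2 (red) and for 7 lists of other iron genes (grey), with each list's median as a black bar and dashed lines at 2-fold. Most genes lie between the dashed lines, the list of mitochondrial iron genes is centred at -0.54, and Hp at 2.69 and Bmp6 at -2.74 are the extremes.

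Handling of haem and haemoglobin iron had a median of -0.09, with 5 of 11 genes higher and 6 lower. Hp, which encodes haptoglobin, the plasma protein that binds free haemoglobin, was at 7.32 in the enriched and 4.63 in the standard environment pool, a difference of 2.69 or 6.46-fold, and 0.36% of measured genes lay further up. Hpx, the haem-binding hemopexin, was at 0.30 and Hmox1, which opens the haem ring and frees its iron, at 0.73. Abcg2, a carrier that can export haem, was at -1.38, or 2.60-fold lower, over 2 probes (SD between probes 0.18).

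Mitochondrial iron genes lay lower as a list, with 11 of 13 lower beside 47.7% of all measured genes, and 3 of 13 at least 2-fold lower beside 9.46%. The median was -0.54, against 0.03 over all measured genes, and stayed between -0.55 and -0.48 over the alternatives. Isca1, an iron-sulfur cluster assembly factor, had levels of 0.84 in the enriched and 2.64 in the standard environment pool, a difference of -1.80 over 3 probes (SD between probes 0.05). Fech, which inserts iron into haem, was at -1.33. Slc25a37, the iron importer mitoferrin 1 of red cell precursors, was at -0.51 and its general counterpart Slc25a28 at 0.15. The skeletal muscle markers, with a median of -7.92, and the erythroid markers, with -5.13, lay lower in the same pool, and their part in this list was not tested.

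**Figure D4:**
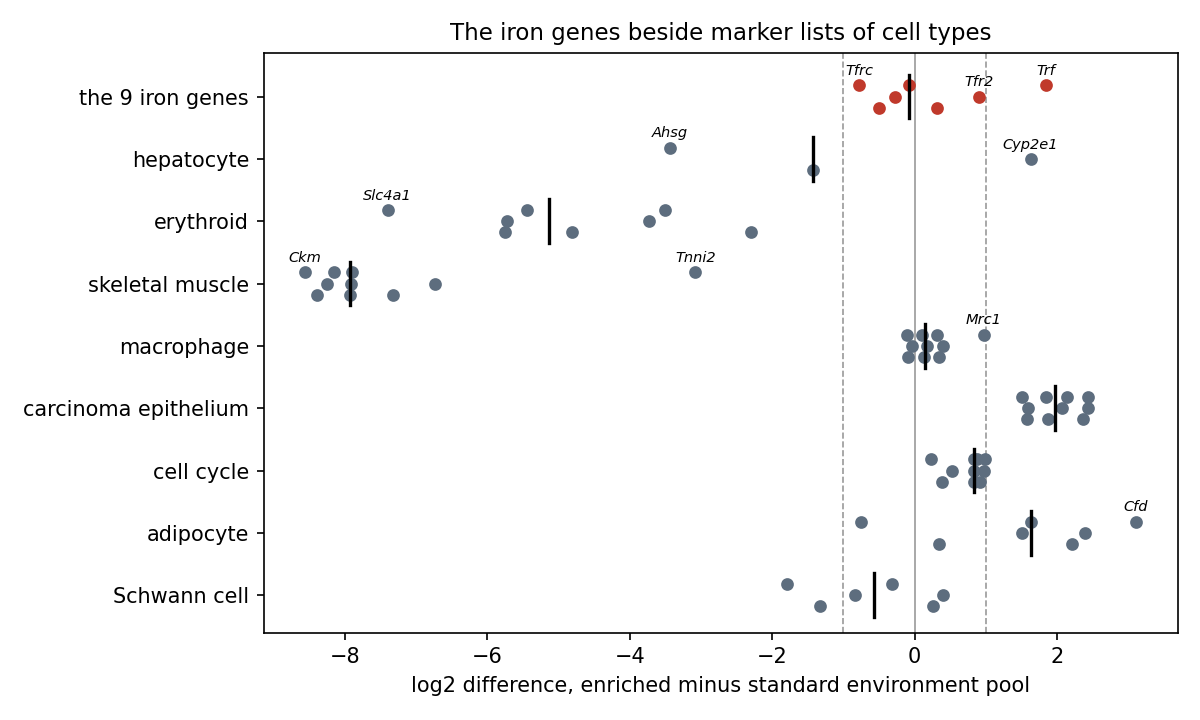
Log2 difference, enriched minus standard environment pool, of 7 iron genes measured on both arrays (red) and of cell type markers measured on both arrays (grey), with medians as black bars and dashed lines at 2-fold. Erythroid and skeletal muscle markers lie far to the left at medians of -5.13 and -7.92, carcinoma epithelium and adipocyte markers to the right at 1.97 and 1.63, and the iron genes run from -0.78 to 1.84.

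The skeletal muscle markers ran from -8.56 to -3.08. The Hjv bound of -7.60 is a limit and not a measured difference, so Hjv may lie within that range or beyond it. These are single values from 1 array per housing, and no test of a difference between them could be made.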

How the data were processed

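Total RNA was pooled from 6 tumours per housing, labelled with Cy3 and hybridised to 1 Agilent-014868 array each, per the labels. Agilent Feature Extraction 10.7.1.1 is named in the submitters' processing notes, and the deposited scanner files give its linear intensity and error estimate per spot. A background surface had been subtracted and a spatial trend removed, per the file headers, which changes dim spots most. The authors' deposited series table holds log2 values for 30319 probes. Its columns and the scanner's log2 intensity correlated at r = 1.00 across probes, with medians of 8.56 (enriched) and 8.54 (standard). Its scaling and centring are not given in the sources used here, and it served as an alternative only.

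The 1639 control spots and spots marked as outliers were left out, spots of a probe were averaged, and log2 intensity was taken relative to each array's 75th percentile. A gene is the mean of its probes well above background on both arrays. Where a gene was above background on 1 array only, a bound was taken against the other array's lowest well-measured signal, or the gene's own signal there if that was higher. Of 41161 probes, 22943 were named through RefSeq accessions (GRCm38.p6) and the others kept the file's name. Probe positions are those of the design on mm7, and exons or UTRs were not assigned. Software: Python 3.11.15, pandas 2.3.3, R 4.3.3, limma 3.58.1 (normexp with offset 50, quantile normalization). Grouping and fold steps were checked on simulated data.

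With 1 array per group no test was run, and counts stand beside the share of all measured genes. The genes described and all lists were chosen with earlier results of these data known. All 9 genes are named. In each other iron list the genes at least 2-fold apart are named, up to 6, or else the 3 furthest apart, and some further genes of the lists were named for their role after their values were seen. Some genes that enter the counts of these lists are not reported here by name.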

Additional observations from a re-analysis of the deposited data

How the results depend on the processing

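The differences were recomputed under 9 other settings of scaling, background correction, filter, outliers, probe choice and source. A value was taken as moved where it shifted by at least 0.17, the median SD between probes of a gene. Tfr2, Trf, Tfrc, Hfe and Slc40a1 stayed within that margin under all 9, with Hfe between -0.51 and -0.33. Tfr2, Trf, Tfrc and Slc40a1 have 1 probe each, so the filter, outlier and probe choice settings could not change their values. Scaling to the array median, or to the 75th percentile of probes well above background on both arrays, shifts all genes alike. That shift was smaller than the margin, so these settings could not move any single gene past it. The median over the iron genes was 0.13 with the brightest probe of each gene, where Slc11a2 turned from -0.08 to 0.13. The number at least 2-fold apart was 2 without a filter on dim probes, since Hjv then counted at -8.87, and 3 at a threshold of 1.5-fold. Fth1 was between -0.34 and -0.09. The Hjv bound depended on the background step, at -5.21 with normexp and -5.39 with the uncorrected mean signal against -7.60 as reported. The value of -8.87 without a filter is a plain difference and not a bound. Hjv had a value in 8 settings, as the deposited table holds none for it. A bound can only point towards the array that detected the gene. Its sign was therefore fixed in advance in all of these settings but the unfiltered one. Hamp2 was between -2.43 and -1.68. The median of all other iron genes stayed between -0.17 and -0.03. Medians of the hepcidin control, storage, ferroxidase and haem lists crossed 0 under 2 or 3 settings each. The median difference of all measured genes lay between -0.11 and 0.12. No paired analysis was possible because each group has 1 pooled sample. Signal over background limits Hamp, and having 1 array per group limits how precise any value can be.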

Other observations

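Of 38 other iron genes with several probes measured on both arrays, 6 had probes on both sides of 0, namely Aco1, Pcbp2, Neo1, Il6ra, Bmpr1a and Acvr2a, and the SD between probes was largest for Aco1 and Pcbp2. Aco1, which encodes an iron regulatory protein that doubles as cytosolic aconitase, had a probe that was higher in the enriched environment pool by 0.60, with intensities of 4707 in the enriched and 2376 in the standard environment pool, and a dimmer one that was lower by -1.58, with intensities of 98.3 in the enriched and 224 in the standard environment pool. The mean of -0.49 (SD between probes 1.54) describes neither. Pcbp2, an iron chaperone, had probes at 0.76, -0.17 and -0.18 (SD 0.54). Over all genes with several probes, 26.5% had probes on both sides of 0. Whether the Aco1 and Pcbp2 probes read different transcripts was not tested.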
